A study of Mus musculus with 8 samples.

Results

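The proteasome is the protease complex that degrades ubiquitin-tagged proteins, and its subunit genes were read here in mouse embryonic stem cells on 8 Illumina expression arrays. The members were all probes whose platform gene symbol was Psma, Psmb, Psmc or Psmd followed by a number. Psmb8, Psmb9 and Psmb10, which encode the inducible beta subunits, were kept apart and are described with the neighbouring pathway genes. The choice gave 61 of 45281 probes and 36 gene symbols. A probe above background (detection p under 0.05) on at least 2 arrays was found for 32 of the 36 symbols. Psma1, Psma3, Psma6 and Psmd5 had no such probe, their probes being above background on 0 arrays, so they have no tested values. The 32 genes lie among 14103 features tested, of which 8933 had a gene name.

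The proteasome is built from a barrel-shaped core particle and a regulatory particle that caps its ends. Psma genes encode the outer alpha rings of the core, which form the gate, and Psmb genes encode the inner beta rings, which hold the catalytic sites. The regulatory particle has a base, with the Psmc ATPases that unfold substrates, and a lid, made of Psmd subunits, that removes ubiquitin chains. Human embryonic stem cells are known for high proteasome activity, and mammalian cells are known to co-regulate the subunit genes through shared transcription factors.

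All cells were of the R1 mouse embryonic stem cell line lacking Fgf4 (FGF4-/-), from strains labelled 129X1/SvJ and 129S1/SV (the second with further allele marks), and all carried a short hairpin RNA (shRNA) delivered by infection. Before treatment the cells spent a night in N2B27, a serum-free medium, to which BMP4 had been added at 10 ng/ml, and the listed factor was then given for 3 days. Each of the 4 groups had 2 arrays, and each array of a group had its own shRNA according to the titles. The first group was Mp1 knockdown in FGF4 at 20 ng/ml, with shMp1Lib on 1 array and shMP1G on the other. Mp1 is a scaffold protein of the MEK and ERK kinases on late endosomes, encoded by Lamtor3. The remaining groups carried the control hairpins shRnd1 and shRnd2 and received FGF4 at 20 ng/ml, LIF at 10 u/ml or no factor. The treatment note names Rnd1 for both LIF samples while the titles give shRnd1 and shRnd2, so the hairpin of the LIF sample titled shRnd2 is in doubt. The labels do not state whether a group's 2 samples were grown as separate cultures, so p-values measure the spread between these arrays, which may be technical, and within the Mp1 group hairpin and array cannot be told apart.

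The single Lamtor3 probe was above background on 0 of the 8 arrays (63.0 to 71.2 intensity units), so the arrays do not check the knockdown, and no probe was named Fgf4. Between 15375 and 17813 probes per array were above background, the most on the shMp1Lib array. That array also stood apart from its partner. Its log2 values correlated at 0.962 with those of shMP1G across the 14103 features, which are not independent replicates, against 0.991, 0.983 and 0.993 for the control pairs in FGF4, in LIF and without factor. Results that rest on shMp1Lib are therefore given with and without it. Of 10 listed pluripotency genes 6 were named on the platform and 5 were above background on every array, Esrrb being the exception. Their summed intensity was 40875 and 45203 on the Mp1 shRNA arrays, 46727 to 54244 in control FGF4 cells, 33182 to 43896 in LIF and 41516 to 43087 without factor. Of 9 fibroblast genes, the defining collagens Col1a1, Col1a2 and Col3a1 among them, 7 were above background nowhere, and the macrophage genes Ptprc, Csf1r and Adgre1 were above background nowhere. Trophoblast genes above background numbered 2 to 4 of 6 per array, endoderm genes 0 to 3 of 6 and neural genes 1 to 3 of 5. The part of these markers in the proteasome values was not tested. In bulk RNA, fewer cells of a type and less RNA per cell cannot be told apart.

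The proteasome genes did not pass the test in any of the 6 comparisons between groups, including those in which a sizeable share of all features did. With limma's moderated test and Benjamini-Hochberg adjustment over all features, 0 of 32 members were called in FGF4 against no factor, where 15.6% of all features were called. The count was 0 of 32 in FGF4 against LIF (15.7% of all features), 0 of 32 in LIF against no factor (0.00709%) and 0 of 32 in Mp1 shRNA against control shRNA in FGF4 (0.0993%). It was also 0 of 32 in Mp1 shRNA in FGF4 against no factor (14.2%) and against LIF (19.4%). At an unadjusted p under 0.05 (limma) the counts, in the same order, were 1, 1, 1, 3, 6 and 8 of 32. The shares of all features in that order were 27.8%, 28.1%, 7.34%, 14.4%, 28.7% and 38.0%, each above the members' share. A pattern was present on a single array. With the shMp1Lib hairpin, 10 of the 11 core particle genes lay below all 6 control arrays, where 25.1% of all features did. Of the 17 regulatory particle genes, 4 lay below all 6 control arrays there, 3 above (33.4% of all features) and 10 within their range. With the shMP1G hairpin 3 of the 11 core genes lay below that range, counted by the probe with the highest mean, against 12.4% of all features.

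**Figure D1:**
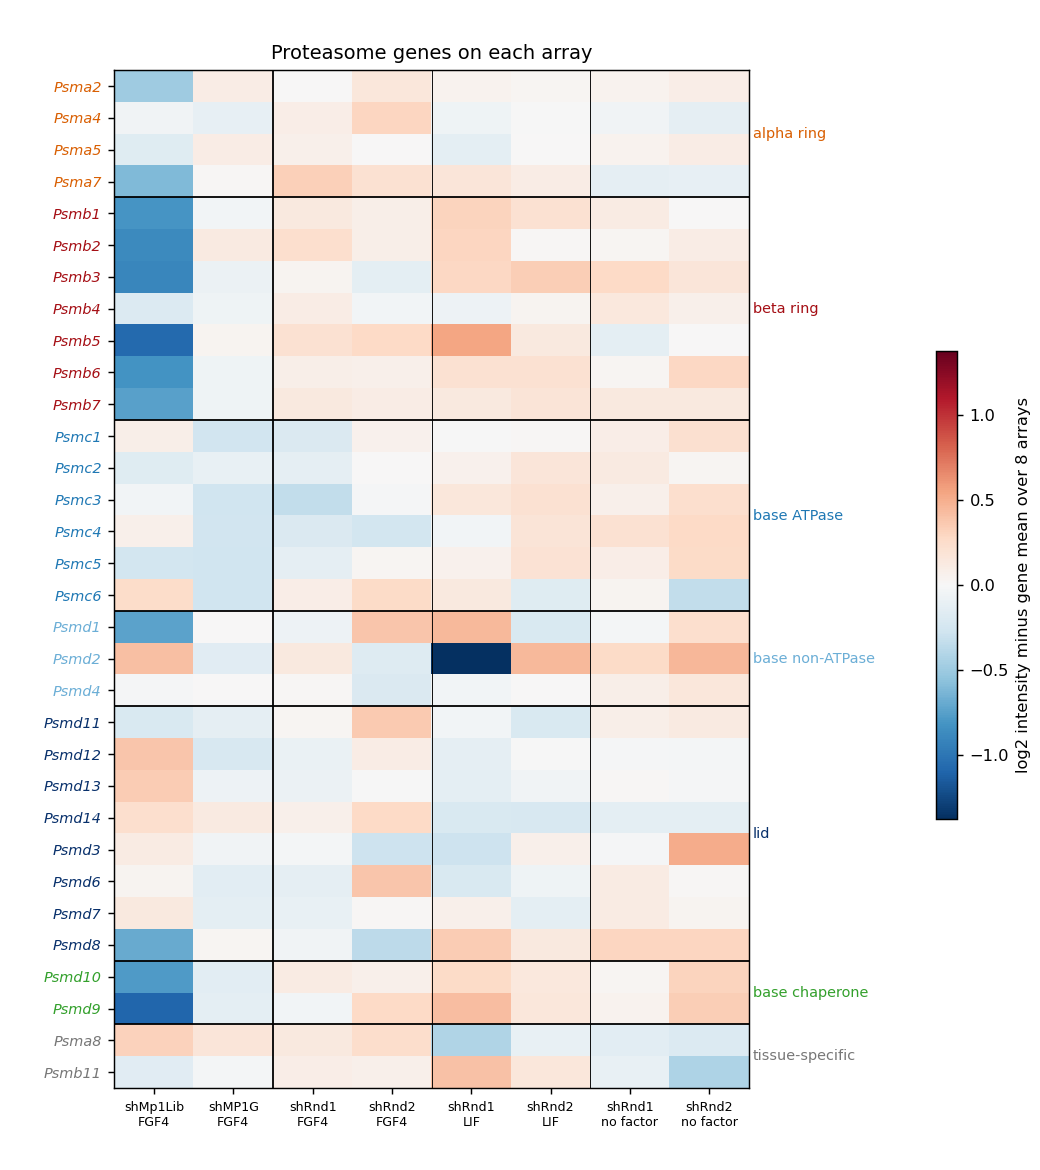
Each row is 1 of the 32 proteasome genes, grouped by its place in the complex, and each column is 1 array, with the Mp1 shRNA arrays at the left. Colour gives the log2 intensity minus the gene's mean over 8 arrays, from blue (lower) to red (higher); the dark column of core and chaperone genes belongs to shMp1Lib, and the single darkest cell is Psmd2 on the LIF shRnd1 array (-1.38).

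The upstream sequences of 4 genes are shown to set core and regulatory genes side by side: Psmb5 and Psmb3 had the lowest differences of core genes between the shMp1Lib array and the mean of the 6 control arrays, and Psmd2 and Psmd12 the highest of regulatory genes. The shMp1Lib value of Psmd2 lay inside the control range. Its difference of 0.46 was raised by the LIF shRnd1 value of 5.98, against 7.19 to 7.83 on the other control arrays. The place of Psmd2 among the highest rests on that low value. The 4 genes were chosen by their differences from the control mean, and the sequences are RefSeq's, build GRCm38.p6. Each gives the 250 bases before the gene's annotated start, read 5′ to 3′ on the gene's strand, with motif matches in capitals. The windows are chr14:54617996-54618245 (minus strand) for Psmb5, chr11:97703184-97703433 (plus) for Psmb3, chr16:20651402-20651651 (plus) for Psmd2 and chr11:107479278-107479527 (plus) for Psmd12.
Psmb5: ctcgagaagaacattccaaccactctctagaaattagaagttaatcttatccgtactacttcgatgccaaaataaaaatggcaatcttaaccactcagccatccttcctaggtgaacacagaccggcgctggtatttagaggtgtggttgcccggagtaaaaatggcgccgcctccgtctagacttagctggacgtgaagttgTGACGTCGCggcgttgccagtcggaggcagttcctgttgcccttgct
Psmb3: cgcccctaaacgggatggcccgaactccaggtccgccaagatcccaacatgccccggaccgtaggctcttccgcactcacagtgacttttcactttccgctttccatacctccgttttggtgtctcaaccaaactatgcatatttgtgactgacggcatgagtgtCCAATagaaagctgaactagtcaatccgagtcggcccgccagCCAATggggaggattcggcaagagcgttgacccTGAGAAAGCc
Psmd2: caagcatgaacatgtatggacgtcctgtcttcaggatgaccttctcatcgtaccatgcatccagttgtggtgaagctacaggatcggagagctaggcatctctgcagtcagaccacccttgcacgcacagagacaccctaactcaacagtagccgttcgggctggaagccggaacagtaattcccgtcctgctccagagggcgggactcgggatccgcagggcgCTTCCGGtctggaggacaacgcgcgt
Psmd12: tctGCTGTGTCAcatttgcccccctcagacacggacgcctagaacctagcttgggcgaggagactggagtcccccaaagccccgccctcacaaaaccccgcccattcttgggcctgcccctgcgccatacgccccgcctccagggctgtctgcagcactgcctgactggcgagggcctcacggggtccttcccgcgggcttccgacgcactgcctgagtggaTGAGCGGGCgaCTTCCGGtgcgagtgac

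The motifs searched on both strands were TGANNNNGC, the core of the antioxidant response element read by Nrf1 and Nrf2; CCAAT, the box read by NF-Y; and CCGGAAG, a binding word of ETS factors. Matches of different motifs overlapped in 0 cases. A promoter entry was found for 25 of the 32 genes, 8 of them core and 14 regulatory. The ETS word was present in 0 of the 8 core promoters and in 8 of the 14 regulatory promoters (57.1%), against 7.14% of the 27025 promoters in the table. In the sequences above it stands on the opposite strand, as CTTCCGG, in Psmd2 (26 bases before the start) and Psmd12 (17 bases before the start). TGANNNNGC was present in 4 of 8 core promoters and 3 of 14 regulatory promoters, against 35.1% of all promoters. It begins 47 bases before the start in Psmb5, 10 bases before it in Psmb3 and 28 bases before it in Psmd12, with a further match on the other strand of Psmd12 at 247 bases. CCAAT was present in 3 of 8 and 4 of 14 against 34.2% of all promoters, and Psmb3 held it at 85 and 43 bases before the start. These matches describe letters in a window, and binding was not measured.

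On the shMp1Lib array the genes of the catalytic chamber were low together. Levels below are background-corrected, quantile-normalised log2 intensities, so 1 unit is a doubling. Psmb5, the chymotrypsin-like catalytic subunit, stood at 9.42 with shMp1Lib and 10.53 with shMP1G, against 10.70 and 10.77 in control FGF4 cells, 11.04 and 10.64 in LIF and 10.36 and 10.50 without factor. The shMp1Lib value was the lowest of the 8, while shMP1G lay inside the control range. Psmb6, the caspase-like catalytic subunit, had 12.39 with shMp1Lib and 13.16 with shMP1G, against 13.31 and 13.30 in control FGF4 cells, 13.44 and 13.44 in LIF and 13.25 and 13.51 without factor. Psmb7, the trypsin-like catalytic subunit, had 12.15 with shMp1Lib and 12.85 with shMP1G, against 13.04 and 13 in control FGF4 cells, 13.03 and 13.08 in LIF and 13.03 and 13.04 without factor. By the probe taken for each gene, both Mp1 shRNA arrays lay below all 6 control arrays for Psmb6 and Psmb7, shMp1Lib by far the lower. The 6 control arrays of that Psmb7 probe spanned 0.08 on the log2 scale. Another Psmb7 probe had 12.79 with shMP1G against 12.75 without factor with shRnd1. A further Psmb7 probe had 11.40 against 11.37 on those arrays, so for both probes shMP1G lay inside the control range.

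The non-catalytic beta subunits divided. Relative to the mean of the 6 control arrays, the shMp1Lib difference was -1.06 for Psmb3, -1.01 for Psmb2 and -0.96 for Psmb1, but -0.23 for Psmb4. Psmb4 had 13.81 with shMp1Lib and 13.94 with shMP1G, against 14.09 and 13.95 in control FGF4 cells, 13.93 and 14.03 in LIF and 14.14 and 14.06 without factor. It too was lowest with shMp1Lib, so all 7 beta ring genes were below every control array there, with a median difference of -0.98 from the control mean. The same 7 genes on the shMP1G array had a median difference of -0.19. By the probe taken for each gene, 3 of them, Psmb1, Psmb6 and Psmb7, were below every control array, though not with every Psmb7 probe.

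The alpha ring genes showed smaller departures. Psma7 had 11.97 with shMp1Lib and 12.60 with shMP1G, against 12.91 and 12.79 in control FGF4 cells, 12.75 and 12.68 in LIF and 12.46 and 12.47 without factor. Psma2 had 13.36 with shMp1Lib and 13.94 with shMP1G, against 13.85 and 14.01 in control FGF4 cells, 13.90 and 13.88 in LIF and 13.89 and 13.94 without factor. Both were lowest with shMp1Lib and inside the control range with shMP1G. Psma5 had 13.40 with shMp1Lib and 13.67 with shMP1G, against 13.63 and 13.56 in control FGF4 cells, 13.43 and 13.57 in LIF and 13.62 and 13.66 without factor, so its shMP1G value lay above every control array. Psma4 was the 1 core gene inside the control range on shMp1Lib, with a difference of -0.07 from the control mean. Over all 11 core genes, shMp1Lib was below every control array for 10 and above for 0, against 25.1% and 33.4% of all features. It was the lowest of all 8 arrays for the same count of 10 core genes, for 3 regulatory genes and for 15 of the 32 members, against 23.4% of all features. With shMP1G the core counts, by the probe taken for each gene, were 3 below and 1 above, against 12.4% and 14.3% of all features.

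**Figure D2:**
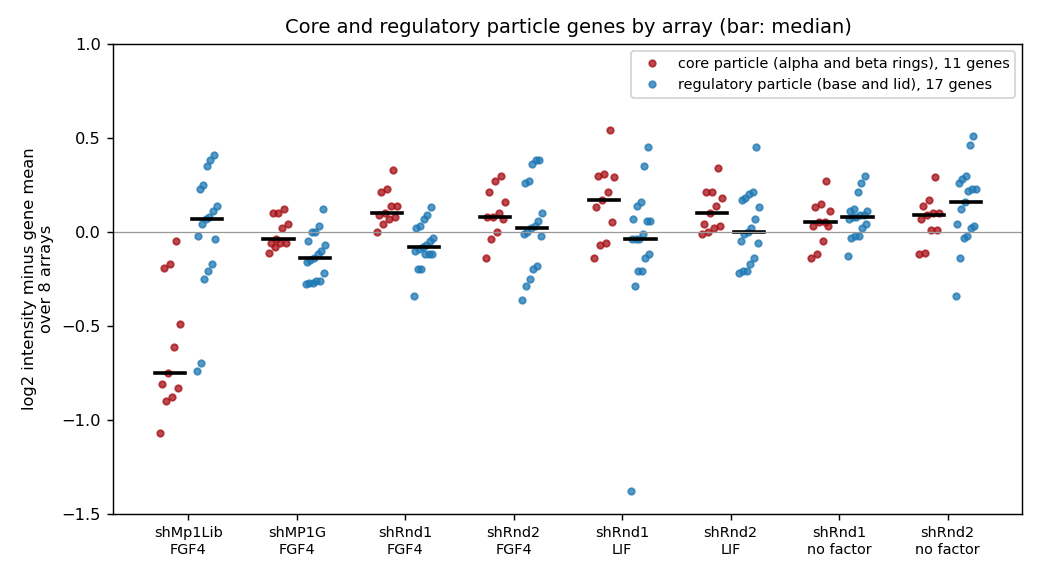
Points are genes, and the vertical axis is the log2 intensity minus the gene's mean over 8 arrays for the 11 core particle genes (red) and the 17 regulatory particle genes (blue) of each array; black bars are medians. The core median was -0.75 on shMp1Lib and between -0.04 and 0.17 on the other 7 arrays, while regulatory medians ran from -0.14 to 0.16.

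The regulatory particle genes were not low as a set on that array. Their median deviation was 0.07 with shMp1Lib and -0.14 with shMP1G, against -0.08 and 0.02 in control FGF4 cells, -0.04 and 0.00 in LIF and 0.08 and 0.16 without factor. The core median minus the regulatory median was therefore -0.82 with shMp1Lib and 0.10 with shMP1G, against 0.18 and 0.06 in control FGF4 cells, 0.21 and 0.11 in LIF and -0.04 and -0.07 without factor. The shMp1Lib value lay outside the range of the other 7 arrays, whose values did not separate Mp1 from control cells. The same contrast was present before any correction or normalisation: the summed intensity of the 11 core probes was 1.18 times that of the 17 regulatory probes with shMp1Lib and 2.0 times with shMP1G, against 1.78 to 2.18 times on the 6 control arrays. Because this ratio is taken within an array, it shows unequal change of the 2 sets and does not say which of them moved. Under alternative background corrections, normalisations and filters, a set of alternatives chosen after seeing the data, the shMp1Lib difference ran from -0.89 to -0.62.

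Among the 6 base ATPases, which unfold and thread substrates, differences from the control mean ran from -0.33 to 0.25 with shMp1Lib and from -0.35 to -0.14 with shMP1G. Psmc2 had 12.85 with shMp1Lib and 12.92 with shMP1G, against 12.90 and 13.02 in control FGF4 cells, 13.08 and 13.19 in LIF and 13.14 and 13.05 without factor. Psmc5 had 11.95 with shMp1Lib and 11.94 with shMP1G, against 12.08 and 12.24 in control FGF4 cells, 12.26 and 12.40 in LIF and 12.29 and 12.46 without factor. With this Psmc5 probe both hairpins gave a similar displacement, with both arrays below all 6 control arrays and differences of -0.33 and -0.35 from their mean. A second Psmc5 probe did not place both below. It had 11.39 with shMp1Lib and 11.45 with shMP1G, against 11.39 in control FGF4 cells with shRnd1. Psmc4 had 12.80 with shMp1Lib and 12.47 with shMP1G, against 12.53 and 12.48 in control FGF4 cells, 12.69 and 12.91 in LIF and 12.94 and 13.01 without factor. Its values in FGF4 control cells were both below those in LIF and without factor, and the shMp1Lib value lay between the 2 LIF values. The class as a whole had a median difference from the control mean of -0.03 with shMp1Lib and -0.29 with shMP1G. By the probe taken for each gene, 2 and 3 of 6 genes lay below every control array, against 25.1% and 12.4% of all features. These counts depend on the probe. A second Psmc2 probe had 9.08 with shMp1Lib and 9.14 with shMP1G, both below every control array, the lowest being 9.25.

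Of the scaffold and receptor subunits of the base, Psmd1 lay below every control array on shMp1Lib, and Psmd2 and Psmd4 lay within the control range. Psmd1, a large scaffold subunit, had 7.69 with shMp1Lib and 8.42 with shMP1G, against 8.35 and 8.80 in control FGF4 cells, 8.87 and 8.21 in LIF and 8.40 and 8.65 without factor. Psmd2, the other large scaffold subunit, had 7.78 with shMp1Lib and 7.21 with shMP1G, against 7.50 and 7.19 in control FGF4 cells, 5.98 and 7.82 in LIF and 7.62 and 7.83 without factor. Psmd1 was thus lowest with shMp1Lib, whereas Psmd2 was inside the control range there and had a single low value in LIF with shRnd1. That probe read 99 intensity units on the LIF shRnd1 array, a value whose lost decimal point was placed from its digits and its detection p-value, and 264 on the LIF shRnd2 array. Psmd4, a ubiquitin receptor, had 13.31 with shMp1Lib and 13.33 with shMP1G, against 13.35 and 13.12 in control FGF4 cells, 13.29 and 13.32 in LIF and 13.41 and 13.49 without factor, so both Mp1 arrays were inside the control range.

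Of the 8 lid genes, 3 lay above every control array with shMp1Lib (Psmd7, Psmd12 and Psmd13) and 1 below (Psmd8), against 33.4% above and 25.1% below of all features. These counts go by the probe taken for each gene, and another Psmd7 probe lay below every control array on shMp1Lib. Psmd12 had 12.45 with shMp1Lib and 11.85 with shMP1G, against 11.98 and 12.17 in control FGF4 cells, 11.95 and 12.06 in LIF and 12.05 and 12.04 without factor. Psmd13 had 13.23 with shMp1Lib and 12.81 with shMP1G, against 12.80 and 12.88 in control FGF4 cells, 12.74 and 12.83 in LIF and 12.90 and 12.86 without factor. The 2 Mp1 arrays sat on opposite sides of the control range for Psmd12 by the probe taken. With a second Psmd12 probe both lay inside that range, at 9.26 with shMp1Lib and 8.97 with shMP1G, against 8.80 to 9.32. Psmd8 had 7.83 with shMp1Lib and 8.56 with shMP1G, against 8.48 and 8.17 in control FGF4 cells, 8.88 and 8.66 in LIF and 8.83 and 8.83 without factor. Psmd11 had 9.23 with shMp1Lib and 9.31 with shMP1G, against 9.47 and 9.80 in control FGF4 cells, 9.40 and 9.22 in LIF and 9.51 and 9.55 without factor. Psmd8 was lowest with shMp1Lib. A second Psmd8 probe, above background on 2 arrays, read 88 units with shMp1Lib and 82 with shMP1G. Its difference of 0.00 between the Mp1 arrays is near background and shows little. By the probe taken, Psmd11 had both Mp1 arrays within the control range although both were below the FGF4 controls. Another Psmd11 probe differed, with 8.18 with shMp1Lib, above the FGF4 controls at 8.10 and 8.06. Its shMP1G value of 7.87 lay below every control array, the lowest being 7.89. Psmd14, the deubiquitinating enzyme of the lid, had 10.86 with shMp1Lib and 10.75 with shMP1G, against 10.70 and 10.90 in control FGF4 cells, 10.42 and 10.41 in LIF and 10.50 and 10.49 without factor. All 4 arrays of FGF4-treated cells were above the 4 arrays without FGF4 for this gene, with no call (adjusted p = 0.298 for FGF4 against no factor, limma). Psmd3 was above background on 2 arrays, shMp1Lib and no-factor shRnd2, which limits what its values show, and Psmd6 had differences of 0.02 and -0.17 from the control mean on the Mp1 arrays.

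Psmd9 and Psmd10, also known as gankyrin, are not parts of the finished complex but chaperones that assemble the base, and both were low on shMp1Lib like the core genes. Psmd9 had 6.19 with shMp1Lib and 7.14 with shMP1G, against 7.24 and 7.54 in control FGF4 cells, 7.70 and 7.43 in LIF and 7.33 and 7.61 without factor. Psmd10 had 9.14 with shMp1Lib and 9.77 with shMP1G, against 10.02 and 9.98 in control FGF4 cells, 10.17 and 10.06 in LIF and 9.94 and 10.22 without factor. For both genes both Mp1 arrays were below all 6 control arrays, by -1.29 and -0.33 from the control mean for Psmd9 and by -0.93 and -0.30 for Psmd10. All 3 Psmd10 probes were lower with shMp1Lib than with shMP1G (differences of -0.63, -0.65 and -0.76), while the Psmd9 probes differed by -0.96 for the one taken and -0.15 for the other.

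The 2 tissue-specific members behaved apart. Psma8, an alpha subunit of germ cells in the testis, had 8.49 with shMp1Lib and 8.34 with shMP1G, against 8.30 and 8.41 in control FGF4 cells, 7.75 and 8.07 in LIF and 8.02 and 7.97 without factor. By the probe taken, all 4 FGF4-treated arrays were above the other 4 arrays. A second Psma8 probe did not separate them, with 7.96 with shMP1G against 8.02 and 7.98 without factor. Its difference in FGF4 against LIF was 0.45 ± 0.18 (SE, n = 2 each, adjusted p = 0.154 by limma). Psmb11, a beta subunit of the thymic cortex, was above background on 1 FGF4 control array and 1 LIF array, and its intensities of 88 to 112 units give no usable fold.

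**Figure D3:**
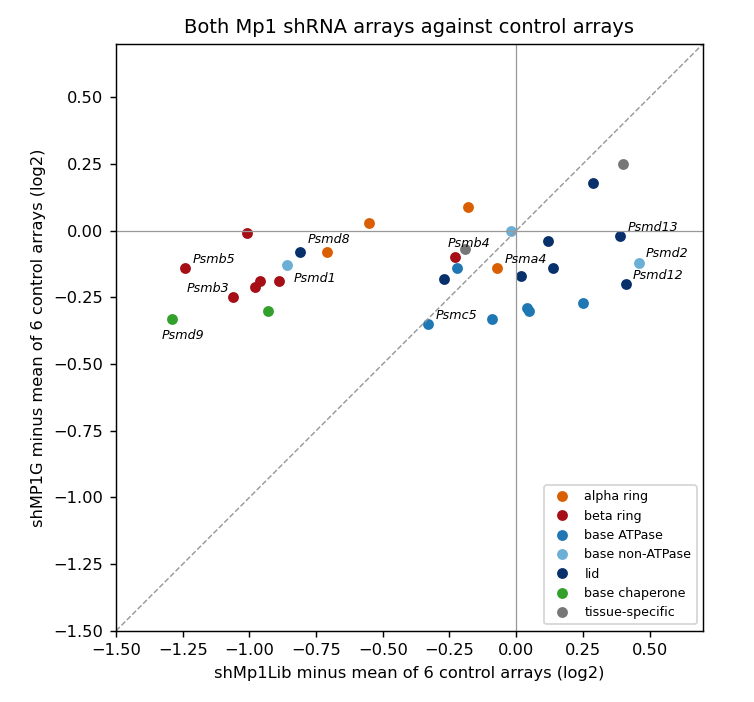
Each point is 1 of the 32 genes, with the shMp1Lib array minus the mean of the 6 control arrays on the horizontal axis and the shMP1G array minus the same mean on the vertical axis, both in log2 units; the dashed line marks equal values. The shMp1Lib differences span -1.29 to 0.46 and the shMP1G differences -0.35 to 0.25.

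The 2 Mp1 arrays lay further apart than the control pairs. The median difference of shMp1Lib minus shMP1G was -0.70 over the core genes and 0.18 over the regulatory genes, against core medians of 0.05 in FGF4, 0.00 in LIF and -0.01 without factor for shRnd1 minus shRnd2. A difference of at least 1.5-fold between shMp1Lib and shMP1G was present in 13 of 32 members, 12 of them lower with shMp1Lib (14.3% of all features were lower by that much, and 14.2% higher). Of those 12, 8 were core genes, 2 were regulatory (Psmd1 and Psmd8) and 2 were the chaperones Psmd9 and Psmd10. The 1 gene higher by that much was Psmd12. Between shRnd1 and shRnd2 the members past 1.5-fold numbered 0 in FGF4 (5.65% of all features), 2 in LIF (12.2%) and 0 without factor (3.96%). The members' median SD over the 6 control arrays was 0.163 on the log2 scale against 0.273 over all features. Over all 8 arrays it was 0.226, against 0.323 over all features and 0.319 over features whose mean levels lay between the members' quartiles. Across the 32 genes, whose probes share the same arrays, the mean level and the difference between the Mp1 arrays correlated at -0.171, as a description.

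Several genes had more than 1 probe above background. The 2 Psma7 probes were lower with shMp1Lib than with shMP1G by similar amounts (differences of -0.63 and -0.69), as were those of Psmb2 (-1.0 and -1.09), Psmb6 (-0.77 and -0.85) and the 4 of Psmb7 (-0.58 to -1.07). Psmd12 was higher with both probes (0.61 and 0.28). Probes disagreed by sign between the Mp1 arrays for Psmc5 (0.02 and -0.05), Psmd11 (-0.09 and 0.31) and Psmd7. The Psmd7 probe taken for the gene had 11.54 with shMp1Lib and 11.25 with shMP1G, against 11.29 and 11.41 in control FGF4 cells, 11.46 and 11.25 in LIF and 11.50 and 11.44 without factor. Another Psmd7 probe gave 5.64 with shMp1Lib and 7.12 with shMP1G, against 7.25 and 6.78 in control FGF4 cells, 7.89 and 7.69 in LIF and 7.17 and 7.27 without factor. The Psmd7 probes disagreed by sign between the Mp1 arrays (0.29 and 0.65 against -1.48), so no direction is given for Psmd7. In Mp1 shRNA against control shRNA in FGF4, probes of Psma5, Psma8, Psmd12, Psmd14 and Psmd7 lay on both sides of 0, and apart from Psmd7 and Psmd14 the differences were within 0.07 of 0.

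Set against control shRNA in FGF4 as groups of 2, the Mp1 shRNA cells had a median difference of -0.18 over the 32 members, beside 0.048 over all features. The core genes had a median of -0.52 with 11 of 11 below 0, and the regulatory genes a median of 0.0038 with 8 of 17 below 0. The core median was -0.87 with 11 of 11 below 0 for shMp1Lib alone against the same controls, and -0.14 with 9 of 11 below 0 for shMP1G alone, where Psma2 and Psma5 were above 0. The regulatory median was 0.08 with 6 of 17 below 0 for shMp1Lib alone and -0.11 with 14 of 17 below 0 for shMP1G alone. Psmb5 averaged 9.98 ± 0.78 in Mp1 shRNA cells and 10.74 ± 0.05 in control cells (SD, n = 2 each), a difference of -0.76 ± 0.33 (SE) whose 95% interval was -1.53 to 0.01 and whose adjusted p was 0.353. The differences were -0.57 ± 0.23 for Psma7 (adjusted p = 0.325), -0.73 ± 0.31 for Psmd9 (0.343) and -0.55 ± 0.24 for Psmd10 (0.343), each by limma with n = 2 arrays per group. These 3 genes were the ones with an unadjusted p under 0.05, which is 9.38% of members against 14.4% of all features. The test was decided by which Mp1 array was present. Without shMP1G, 9 members were called lower (Psma7, Psmb1, Psmb2, Psmb3, Psmb5, Psmb6, Psmb7, Psmd9 and Psmd10), in a fit that took its spread from the control groups and called 20.1% of all features, 11.5% lower. There the Psmb5 difference was -1.31 (adjusted p = 0.00829). Without shMp1Lib 0 members were called and 0.199% of all features were.

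In FGF4 against no factor with control shRNA, the question was how the subunit genes stood in cells given a factor known to prompt stem cells to leave self-renewal. The median member difference was -0.040, beside -0.016 over all features, with 14 genes higher and 18 lower. The catalytic genes had differences of 0.31 for Psmb5 (95% interval -0.46 to 1.07), -0.08 for Psmb6 (-0.67 to 0.51) and -0.01 for Psmb7 (-0.55 to 0.53). With 2 arrays per group these intervals are wide. Psmc4 was the 1 member with an unadjusted p under 0.05 (3.12% of members, against 27.8% of all features). It averaged 12.50 ± 0.04 in FGF4 and 12.98 ± 0.05 without factor (SD, n = 2 each), a difference of -0.47 ± 0.19 (SE, adjusted p = 0.145 by limma). It was called when only the 4 arrays compared entered the fit (adjusted p = 0.0452) and when arrays were weighted (0.0287), and in the weighted fit Psmd8 was called too (-0.51, adjusted p = 0.0475).

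LIF against no factor gave a median member difference of -0.035, beside 0.0039 over all features. The lowest adjusted p of a member was 0.599, and the catalytic intervals were -0.36 to 1.18 for Psmb5, -0.53 to 0.65 for Psmb6 and -0.52 to 0.56 for Psmb7. FGF4 against LIF gave a median of -0.022, beside -0.014 over all features, and 1 member with an unadjusted p under 0.05 in each of these comparisons (7.34% of all features for LIF against no factor and 28.1% for FGF4 against LIF). Those members were Psmb11 and Psma8. Psmd2 was called in FGF4 against LIF only when the LIF shRnd2 array was left out (1.36, adjusted p = 0.0338), which leaves the low LIF shRnd1 value alone in its group.

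The Mp1 shRNA cells in FGF4 were also set against control cells in LIF and without factor; these comparisons share the Mp1 arrays with the one above. The median differences over the members were -0.20 against LIF and -0.24 against no factor, beside 0.026 and 0.018 over all features. The core medians were -0.55 and -0.45, and the regulatory medians 0.011 and -0.22. With shMp1Lib alone the core medians were -0.91 against LIF and -0.87 against no factor, and with shMP1G alone -0.12 and -0.03. Psmb3 had the lowest adjusted p of any member in both, with -0.81 ± 0.26 (SE) against LIF (adjusted p = 0.0641) and -0.71 ± 0.26 against no factor (0.117), by limma with n = 2 arrays per group. Members with an unadjusted p under 0.05 made up 25% against LIF and 18.8% against no factor, compared with 38.0% and 28.7% of all features. Without shMP1G the calls became 11 lower members against LIF (19.7% of all features called lower) and 9 against no factor (15.9%), and without shMp1Lib they were 0 in both. Psmd2 was called higher against LIF when the LIF shRnd2 array was left out (1.51, adjusted p = 0.0220).

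The inducible relatives of the catalytic subunits behaved differently from the members. Psmb8, Psmb9 and Psmb10 replace the standard catalytic subunits in the immunoproteasome, and Psme1 and Psme2 form the activator cap, all being known targets of interferon. In FGF4 against no factor 2 of the 3 inducible subunits and 1 of the 3 tested activator genes were called higher, beside 1106 of all 14103 features. Psmb8 had 7.62 with shMp1Lib and 8.14 with shMP1G, against 9.09 and 8.73 in control FGF4 cells, 5.22 and 5.42 in LIF and 5.55 and 5.56 without factor. It rose by 3.36 ± 0.23 in FGF4 over no factor (SE, adjusted p = 7.6e-05). It was above background on 0 LIF arrays, so in FGF4 over LIF it was at least 10.0-fold higher (adjusted p = 7.63e-05), and in Mp1 shRNA cells over LIF at least 4.91-fold higher (0.000455). In Mp1 shRNA cells over no factor Psmb8 rose by 2.33 ± 0.23 (0.000519), while its difference from control FGF4 cells was -1.03 ± 0.23 (0.151; all limma, n = 2 each). All 4 FGF4-treated arrays were above the other 4, with the Mp1 arrays below the FGF4 controls. The size depended on the background correction: without it the fitted difference was 2.27 on the log2 scale in FGF4 over LIF, in place of 3.59, and 2.17 over no factor, and for Mp1 shRNA cells it was 1.43 over LIF, in place of 2.56, and 1.34 over no factor. Each of these 4 was still called (adjusted p of 0.000307 to 0.00267).

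Psmb9 had 6.87 with shMp1Lib and 7.90 with shMP1G, against 8.70 and 8.45 in control FGF4 cells, 7.42 and 6.69 in LIF and 6.59 and 6.79 without factor. Psmb9 rose in FGF4 over no factor by 1.89 ± 0.36 (SE, adjusted p = 0.00893) and over LIF by 1.52 ± 0.36 (0.0246, limma, n = 2 each), and lost the first call when FGF4 shRnd1 or either no-factor array was left out (adjusted p of 0.0564 to 0.0765). The call over LIF was lost when either FGF4 control, LIF shRnd2 or either no-factor array was left out (0.0526 to 0.153), and with no filter on dim probes (0.0930). Psme1 had 11.45 with shMp1Lib and 12.03 with shMP1G, against 12.45 and 12.58 in control FGF4 cells, 11.37 and 11.11 in LIF and 11.09 and 11.14 without factor. Psme1 rose by 1.40 ± 0.23 in FGF4 over no factor (adjusted p = 0.00408) and by 1.28 ± 0.23 over LIF (0.00695), the second call being lost without FGF4 shRnd2 (0.0655). Psmb10 had 8.65 with shMp1Lib and 10.38 with shMP1G, against 10.72 and 10.34 in control FGF4 cells, 9.36 and 8.78 in LIF and 8.89 and 8.97 without factor, with a difference of 1.60 ± 0.49 in FGF4 over no factor (adjusted p = 0.0631). For these 3 genes too, shMp1Lib was the lower of the 2 Mp1 arrays, and for Psmb10 it was the lowest of all 8 arrays. Psme2 had 8.44 with shMp1Lib and 10.04 with shMP1G, against 10.44 and 10.08 in control FGF4 cells, 9.96 and 9.42 in LIF and 9.46 and 9.46 without factor, and was not called in any comparison. Its difference of 0.80 in FGF4 over no factor was called with only the 4 arrays compared (adjusted p = 0.0102), with array weights (0.0364) and without either Mp1 array (0.0316). Here too the size of the differences for Mp1 shRNA cells depended on the array present, and each fit below leaves 1 Mp1 array in its group. Without shMp1Lib the differences over no factor were 1.21 for Psmb9 and 0.92 for Psme1, in place of 0.70 and 0.63. Without shMP1G the differences from control FGF4 cells were -1.30 for Psmb8, -1.71 for Psmb9, -1.07 for Psme1 and -1.81 for Psme2. With both Mp1 arrays they were -1.03, -1.19, -0.78 and -1.02.

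**Figure D4:**
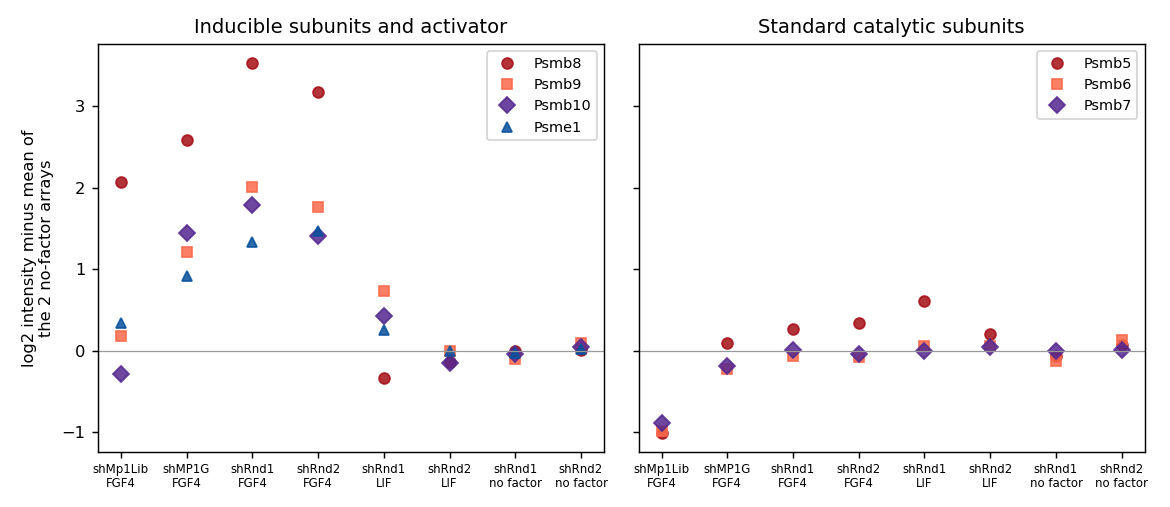
The vertical axis is the log2 intensity minus the mean of the 2 no-factor arrays, for the inducible subunits and Psme1 (left) and the standard catalytic subunits Psmb5, Psmb6 and Psmb7 (right), on the 8 arrays with the Mp1 shRNA arrays leftmost. Psmb8, Psmb9 and Psme1 rose with FGF4 in control cells, and Psmb5, Psmb6 and Psmb7 were lowest on shMp1Lib.

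All 4 tested assembly factors of the core particle were lowest on the shMp1Lib array, as 23.4% of all features were. None of the 4 was called in any comparison as fitted on all 8 arrays. Psmg3 had 8.27 with shMp1Lib and 9.91 with shMP1G, against 10.16 and 9.86 in control FGF4 cells, 10.07 and 9.69 in LIF and 9.58 and 9.36 without factor. Pomp, the maturation factor of the core, had 12.09 with shMp1Lib and 13.26 with shMP1G, against 13.32 and 13.16 in control FGF4 cells, 13.22 and 13.16 in LIF and 13.12 and 13.01 without factor. Psmg2 had 9.53 with shMp1Lib and 10.10 with shMP1G, against 10.38 and 10.53 in control FGF4 cells, 10.13 and 9.92 in LIF and 9.70 and 9.77 without factor. For these 3 genes shMP1G lay inside the control range. Psmg1 had 10.46 with shMp1Lib and 10.99 with shMP1G, against 11.29 and 11.12 in control FGF4 cells, 11.29 and 11.18 in LIF and 11.06 and 11.11 without factor, so both Mp1 arrays lay below every control array. In FGF4 over no factor the Psmg2 difference of 0.72 (adjusted p = 0.0665) was called with only the 4 arrays compared (0.00888), with array weights (0.00545) and without either Mp1 array (0.0137), and it was 0.68 without background correction (0.0483). Psmg3 was called there with only the 4 arrays compared (0.55, adjusted p = 0.0485). Without shMP1G, which leaves shMp1Lib alone in its group, Psmg3 differed from control FGF4 cells by -1.74 and Psmg2 by -0.92. With both Mp1 arrays these differences were -0.92 and -0.64.

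Of the 7 tested proteins that bind the proteasome, 2 were called higher in Mp1 shRNA cells over no factor and over LIF. Of all 14103 features, 1145 were called higher over no factor and 1564 over LIF. Ubqln1, a shuttle for ubiquitinated substrates, was at least 1.45-fold higher over no factor (adjusted p = 0.0377) and at least 1.36-fold higher over LIF (0.0138), being above background on 0 of those control arrays; the first call was lost without shMp1Lib, without either FGF4 control or without either no-factor array (0.0730 to 0.250), and the second without LIF shRnd1 (0.104). The first was also lost without background correction (0.0989), with no filter (0.0785), with only the 4 arrays compared (0.110) and with array weights (0.104), and the second with only the 4 arrays compared (0.0743) and with array weights (0.0633). Ecpas, an adaptor that ties proteasomes to other compartments, had 7.91 with shMp1Lib and 7.73 with shMP1G, against 7.69 and 7.65 in control FGF4 cells, 7.05 and 7.29 in LIF and 7.07 and 7.23 without factor. Ecpas rose by 0.67 ± 0.18 over no factor (adjusted p = 0.0444) and by 0.65 ± 0.18 over LIF (0.0411, limma, n = 2 each); both calls were lost when any array other than shMP1G was left out (0.0592 to 0.252 over no factor and 0.0615 to 0.230 over LIF). They were also lost with only the 4 arrays compared (0.137 and 0.176), with array weights (0.113 and 0.134) and with the replicate block (0.0798 and 0.0701), and the call over no factor with array medians (0.0630). The difference over LIF was 1.15 with array medians. Sem1, a small lid subunit whose symbol lies outside the naming rule, had 11.64 with shMp1Lib and 13.09 with shMP1G, against 13.10 and 12.89 in control FGF4 cells, 13.14 and 12.93 in LIF and 12.65 and 12.79 without factor. It was lowest with shMp1Lib, like the core genes and unlike most lid genes. Uchl5, a deubiquitinating enzyme of the regulatory particle, differed by 0.60 ± 0.20 in FGF4 over no factor (adjusted p = 0.0826), and was called there without background correction (0.0464), with only the 4 arrays compared (0.0375), with array weights (0.0191) and without either Mp1 array (0.0444).

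Among the 3 tested regulators, Ufd1, a cofactor of the Vcp segregase that feeds substrates to the proteasome, had 6.81 with shMp1Lib and 6.62 with shMP1G, against 6.46 and 6.79 in control FGF4 cells, 7.49 and 7.62 in LIF and 7.18 and 7.51 without factor. Ufd1 fell in FGF4 against LIF by 0.93 ± 0.21 (SE; difference -0.93, adjusted p = 0.0183) and in Mp1 shRNA cells against LIF by 0.84 ± 0.21 (difference -0.84, 0.0257; limma, n = 2 each). All 4 FGF4-treated arrays were below the other 4. The first call was lost when any FGF4 control or LIF array was left out (adjusted p of 0.0521 to 0.149), and the second when either LIF array was (0.0873 and 0.103). With array medians neither was called (-0.61, adjusted p = 0.230, and -0.33, 0.420), and the second was lost with only the 4 arrays compared (0.104) and with array weights (0.111). Without background correction the differences were -0.59 and -0.54, both still called. Nfe2l2, which encodes the factor Nrf2, had 8.48 with shMp1Lib and 8.04 with shMP1G, against 8.11 and 7.96 in control FGF4 cells, 7.60 and 8.50 in LIF and 8.33 and 8.34 without factor, and was not called. Of the 6 ubiquitin and E1 genes listed, 1 was named on the platform and 0 were tested.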

How the data were processed

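RNA amplified and biotin-labelled with the Ambion TotalPrep kit, per the labels' protocols, was read on 8 Illumina arrays. The deposited non-normalised table holds 1 linear intensity and 1 detection p-value per probe and array; the scanner software is not named. In 81.2% of the 362248 deposited intensity cells the decimal point had been lost. It was put back from the digits and, where these left several readings, the detection p-value. Of the 256 cells of the 32 genes, 190 were intact, 36 were restored from digits alone and 30 with the detection p-value.

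Intensities were corrected and normalised with limma's neqc (version 3.58.1, R 4.3.3, offset 16), which gives log2 values. Probes with a detection p under 0.05 on at least 2 arrays were kept, and the probe with the highest mean stood for a gene. Names came from the platform annotation. A model of 4 group means (4 residual degrees of freedom) was fitted over 14103 features with lmFit and eBayes, Benjamini-Hochberg adjusted, with calls at 0.05; an SE is that of the fitted difference. The number of arrays limits the precision. The authors' deposited table of normalised intensity values was not used: under its own probe IDs the members' median percentile of intensity was 60.8, against 93.1 in the non-normalised table.

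Genes given on every array were, in each class, the member with the highest mean and those with the largest difference in Mp1 shRNA against control and in FGF4 against no factor, the catalytic subunits and members with probes in opposite directions; of the pathway lists, those called or with the largest difference. Pomp, Psmg1, Psmb10, the promoters and the alternatives for the core minus regulatory level were chosen after their values were seen. The members, lists and motifs were chosen with earlier results of these data known. The alternatives tried were no background correction, array medians, other filters, every probe, only the arrays compared, array weights, the replicate block and leaving out each array.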

Additional observations from a re-analysis of the deposited data

How the results depend on the processing

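The count of called proteasome genes stayed at 0 in all 6 comparisons without background correction, with detection required on all 8 arrays, with no filter and with the replicate block. In Mp1 shRNA in FGF4 against LIF it became 1 (Psma8) with array medians and 2, counted as probes, with every probe as a feature. In FGF4 against no factor it became 1 (Psmc4) with only the 4 arrays compared and 2 (Psmc4 and Psmd8) with array weights. The share of all features called under these settings is not given, so these counts do not single out the members. Leaving out 1 array at a time gave 0 to 9 calls in Mp1 shRNA against control in FGF4, 0 to 9 against no factor, 0 to 11 against LIF, 0 to 1 in FGF4 against LIF and 0 to 0 in the other 2 comparisons; the calls above 1 came without shMP1G.

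The median member difference ran over those fits from -0.22 to -0.13 in Mp1 shRNA against control, -0.30 to -0.18 against no factor, -0.24 to -0.14 against LIF, -0.07 to 0.01 in FGF4 against no factor, -0.07 to -0.01 in LIF against no factor and -0.06 to -0.02 in FGF4 against LIF. In Mp1 shRNA against LIF it was -0.16 without background correction, -0.12 with array medians, -0.10 with no filter and -0.35 with every probe. It was -0.12 without background correction in Mp1 shRNA against control, -0.29 with every probe against no factor, and with array medians -0.16 in LIF against no factor and 0.12 in FGF4 against LIF. The member level moved with array medians to 0.13 on FGF4 shRnd1, -0.14 and 0.10 on LIF shRnd1 and shRnd2 and 0.15 on no-factor shRnd2; on shMp1Lib it was -0.12 with no filter and -0.23 with every probe. The causes were not tested. Array medians shifted the median of all features in Mp1 shRNA against control to 0.173, from 0.048 as reported. Same-numbered control arrays did not deviate together (correlations of -0.083, -0.070 and 0.043). This does not decide whether the samples were paired, as the titles give the number to the hairpin. The replicate block gave 0 called members in each comparison and ended the 2 Ecpas calls (adjusted p of 0.0798 and 0.0701). Probes near background, Psmb11 and Psmd3 among the members, limit what their differences show.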
